A study of Mus musculus with 16 samples.

Results

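Glucose enters B-cells through transporters and is broken down to lactate by the enzymes of glycolysis, and 10 genes of this route were followed through splenic B-cell development: the transporters Slc2a1, Slc2a3 and Slc2a6 and the enzyme genes Hk1, Hk2, Pfkl, Aldoa, Pgk1, Eno1 and Ldha. They were picked by their symbols among the 38355 genes with deposited values, and all 10 were among the 12507 genes expressed highly enough to be tested. RNA-Seq was done on transitional type 1 (T1), transitional type 2 (T2), marginal zone (MZ) and follicular (FO) B-cells sorted from spleens of wild-type (WT) C57BL/6 mice and of Mir146a-/- (KO) mice on the same background. The deletion is carried by every cell of the KO mice, and the ages of the animals are not given in the labels. Each of the 8 groups held 2 biological replicates, and each replicate was pooled from the spleens of 3 to 5 mice, so p-values measure the spread between pools. The values are RPKM, the reads of a gene divided by its exon length and by a total for the library. That total matches the reads assigned to genes. Comparisons between genes rest on the length used, which was 2853 bp for Slc2a1 and 7245 bp for Slc2a3.

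Facilitative transporters of the Slc2a family let glucose down its gradient into the cell. Slc2a1 (GLUT1) is the basal transporter of lymphocytes, Slc2a3 (GLUT3) has a high affinity for glucose, and Slc2a6 (GLUT6) sits mainly on internal membranes. Hexokinase traps glucose as glucose 6-phosphate, phosphofructokinase commits it to glycolysis, and aldolase, phosphoglycerate kinase and enolase carry it on towards pyruvate, which lactate dehydrogenase turns into lactate. Resting B-cells use little glucose and raise its uptake when they are activated, through Myc, HIF-1 and PI3K signalling. MZ B-cells are held in a pre-activated state and answer blood-borne antigen quickly, while FO B-cells recirculate at rest.

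Depth, counted as reads assigned to genes, ran from 9003343 reads in WT T2 replicate 1 up to 26386684 in the deepest library, WT FO replicate 1. Behind each value stood 19 to 612 reads for Slc2a6, 92 to 363 for Hk2 and at least 289 for the other 8 genes, so Slc2a6 and Hk2 carry the largest counting errors. All 6 B-cell markers were abundant in all 16 libraries. Cd93, Fcer2a and the MZ markers Cr2, Cd1d1 and Cd9 were highest on average in T1, FO and MZ, the subsets they mark, and Fcer2a was nearly as high in T2. Mir146, the targeted gene, had 1 read in each WT FO library and 0 elsewhere, which cannot check the genotype labels. Markers of other cells moved with the subsets. The summed RPKM of 14 myeloid genes, led by Lyz2 and S100a9, was 76.6 to 137 in T2 but 13.9 to 57.2 in MZ and 4.81 to 35.3 in FO. All 14 were above 0 in at least 1 library, and 11 to 13 of them in all 4 libraries of a subset. Plasma cell genes, led by Jchain, summed to 686 and 1278 in the replicate 1 libraries of T1 and to 3047 and 4160 in the replicate 2 libraries, against 91.5 to 223 elsewhere, with all 5 above 0 in every library. The 12 genes of cycling cells, all above 0 in every library, summed to 68.3 and 115 in T1 replicate 2 and to 18.7 to 45.3 in the other libraries. The summed NK cell genes (4 listed, led by Prf1 and Gzma) reached 8.81 to 12.6 in MZ and at most 7.74 elsewhere. Prf1 was higher in all 4 MZ libraries than in those of T2 and FO, while Gzma overlapped. Ncr1, also listed, was at 0.0718 to 0.481 RPKM in MZ and at 0.144 to 1.34 in T2. The 8 T cell genes stayed at 6.79 to 27, erythroid genes at 0.958 to 7.48 and platelet genes at 0.202 to 0.847. Immediate early genes summed to 148 to 916 in the KO replicate 1 libraries and to 997 to 4401 in the other 12. The part of these markers in the results that follow was not tested.

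The genes differed in how far they moved across development. Over all 16 libraries the highest value was 13.6 times the lowest for Slc2a6 and 4.07 times for Slc2a3, but only 1.54 times for Hk1. The 8 groups were fitted in 1 limma model of log2(RPKM + 0.5), a scale that understates the change of low genes, and p was adjusted over the 12507 genes within each comparison. A gene passed at an adjusted p under 0.05, and it was called where the log2 difference was also beyond 1 in size. Differences between subsets are means of the WT and the KO difference. In bulk RNA, fewer expressing cells and less RNA per cell cannot be told apart.

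**Figure D1:**
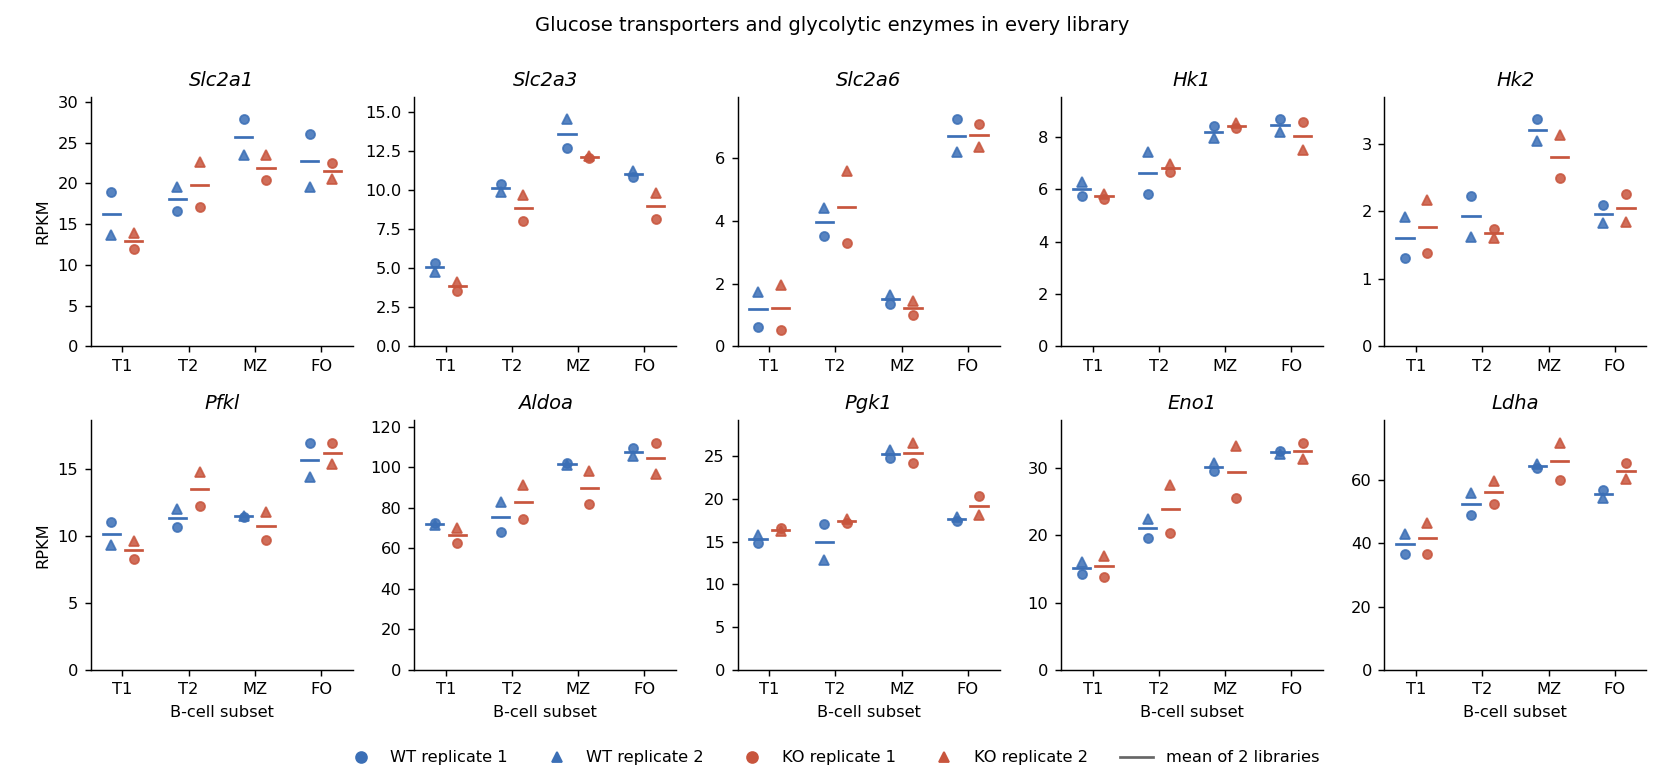
RPKM (y axis, from 0, a scale of its own per gene) of the 10 genes in T1, T2, MZ and FO B-cells (x axis). Circles and triangles are replicates 1 and 2, blue is WT, red is KO, and short lines are means of 2 libraries; the 4 Slc2a6 values in FO lie at 6.17 to 7.22 and the 4 in MZ at 1.01 to 1.65.

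From T1 to T2, 5 of the 10 genes rose (Slc2a3, Slc2a6, Pfkl, Eno1 and Ldha) and none passed as lower, where 16% of all tested genes passed as higher and 9.94% as lower. All 10 point estimates were above 0, as were 61.3% of those of all tested genes. The median of the 10 was 0.37 on the log2 scale against 0.08 for all genes. Slc2a3 and Slc2a6 were called, at a background of 2.27% called higher. The Slc2a3 difference of 1.02 lay at the threshold of 1: it was 0.95 with a pseudocount of 1, 0.94 after median-ratio scaling, 0.92 after quantile normalization, 0.98 without WT T1 replicate 2, 0.97 without KO T1 replicate 1 and 0.95 without KO T2 replicate 2. All 4 T2 libraries lay above all 4 T1 libraries for Slc2a3, Slc2a6, Eno1 and Ldha (background 16%) and below them for none of the 10 (9.56%). Without the T1 replicate 2 libraries, which had the highest plasma and cycling cell markers, 4 of the 5 passed, all but Pfkl, and the same 4 passed without the KO replicate 1 libraries.

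From T2 to MZ, the step the study was about, 7 genes rose (Slc2a3, Hk1, Hk2, Aldoa, Pgk1, Eno1 and Ldha) and 1 fell (Slc2a6). The share of all tested genes that passed was 22.8% higher and 19.6% lower, so many genes changed at this step. The median of the 10 was 0.31 against 0.02 for all genes. Slc2a6 was the only gene of the 10 that was called (4.25% of all genes were called lower). The libraries did not overlap for Slc2a3, Hk1, Hk2, Pgk1 and Ldha, all higher in MZ (22.5%), and for Slc2a6, lower in MZ (19.8%). Leaving out 1 library left 4 to 8 genes higher and 1 lower, and without the KO replicate 1 libraries 4 were higher and 1 lower.

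From T2 to FO, 3 genes passed as higher (Pfkl, Aldoa and Eno1; 4.77% of all genes) and none as lower (5.04%), and none was called in either direction (1.14%). At an unadjusted p under 0.05 Hk1 and Pgk1 were added, and limma-voom on recovered reads passed 4. All 10 point estimates were above 0, as were 50.1% of those of all tested genes. The median of the 10 was 0.25 against 0.00028 for all genes. The 4 FO libraries lay above the 4 T2 libraries for Slc2a6, Hk1, Aldoa and Eno1 (13%) and below them for none of the 10 (13.4%). No gene of the 10 passed without WT T2 replicate 1, WT FO replicate 1, WT FO replicate 2, KO T2 replicate 1 or KO FO replicate 1, with the KO replicate 1 libraries left out together, or with only the T2 and FO libraries fitted.

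MZ compared directly with FO, 3 genes were higher in MZ (Slc2a3, Hk2 and Pgk1; 19.9% of all genes) and 2 lower (Slc2a6 and Pfkl; 17.4%), with Slc2a6 called (3.41% called lower). For these 5 genes the 4 MZ and the 4 FO libraries did not overlap, at backgrounds of 25.3% higher and 21.7% lower. The median of the 10 was 0.058 against 0.037 for all genes, and ran from -0.0022 without WT FO replicate 2 to 0.096 without KO FO replicate 1. Without the KO replicate 1 libraries, only Pgk1 passed as higher, and Slc2a6 and Pfkl as lower. The comparisons share the T2 or MZ libraries and are not independent of each other.

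**Figure D2:**
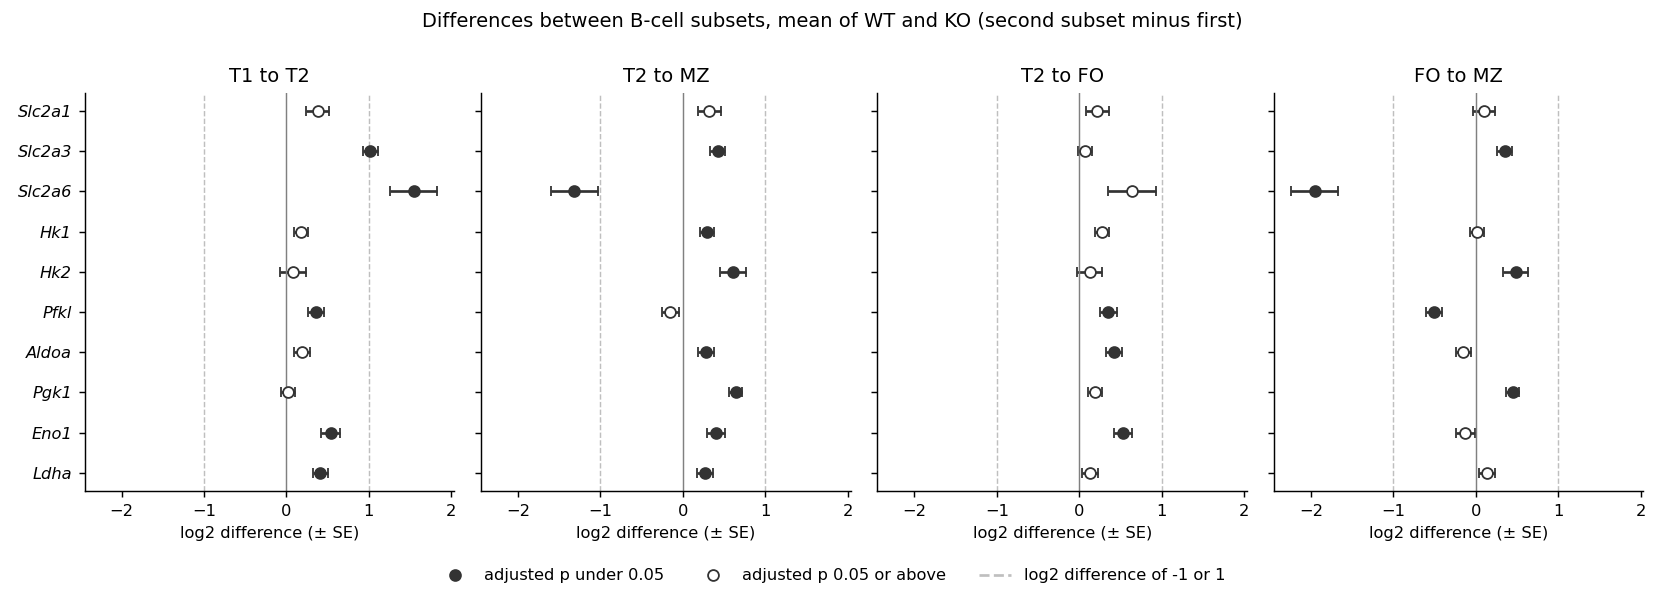
Log2 differences (x axis, second subset minus first, mean of WT and KO, on the log2(RPKM + 0.5) scale) of the 10 genes (y axis) in 4 comparisons. Bars are the standard error, filled points passed at an adjusted p under 0.05 and dashed lines mark -1 and 1; Slc2a6 lies at 1.54, -1.32, 0.64 and -1.96 from left to right.

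Slc2a6, a transporter induced in activated macrophages, had the widest swing. It (ENSMUSG00000036067) lies on chromosome 2 from 27021363 to 27027998, minus strand (GRCm38). In T1 it was at 0.621 and 1.75 RPKM in WT (replicates 1 and 2) and 0.530 and 1.94 in KO, so replicate 2 was the higher in both genotypes. In T2 it was at 3.53 and 4.39 in WT and 3.29 and 5.58 in KO. In MZ it was at 1.36 and 1.65 in WT and 1.01 and 1.45 in KO, and in FO at 7.22 and 6.17 in WT and 7.08 and 6.35 in KO. All FO libraries were the highest and all T2 libraries came next, while the T1 and MZ ranges overlapped. Slc2a6 rose from T1 to T2 by 1.54 on the log2 scale (SE 0.29, adjusted p = 0.00307 from limma). From T2 to MZ it fell by 1.32 (SE 0.29, adjusted p = 0.00397), and MZ was below FO by a difference of -1.96 (SE 0.29, adjusted p = 0.000362). FO exceeded T2 by 0.64, which did not pass (adjusted p = 0.161). These 3 differences passed, and stayed beyond 1 in size, under all 27 or 28 alternatives run. The myeloid marker sum also fell from T2 (76.6 to 137 RPKM) to MZ (13.9 to 57.2), and it was at 4.81 to 35.3 in FO, where Slc2a6 was highest. Without the T1 replicate 2 libraries the T1 to T2 difference was 2.1. The T2 to MZ fall was -1.48 in KO (adjusted p = 0.0227) and -1.15 in WT, which did not pass (adjusted p = 0.0567) but did with a replicate block within each genotype (adjusted p = 0.0256). The KO call ended without KO T2 replicate 2, KO MZ replicate 1 or KO MZ replicate 2 (adjusted p 0.0501 to 0.143).

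Slc2a3 (ENSMUSG00000003153, chromosome 6 from 122727809 to 122801640, minus strand) rose in 2 steps, from T1 to T2 and again to MZ. It was at 5.35 and 4.79 RPKM in WT T1 and 3.57 and 4.10 in KO T1, and at 10.4 and 9.88 in WT T2 and 8.00 and 9.70 in KO T2. In MZ it reached 12.7 and 14.5 in WT and 12.1 and 12.2 in KO. In FO it was at 10.8 and 11.3 in WT and 8.13 and 9.82 in KO. The MZ libraries were the highest and the T1 libraries the lowest, and the T2 and FO libraries overlapped. The difference was 1.02 from T1 to T2 (SE 0.09, adjusted p = 3.65e-05 from limma) and 0.42 from T2 to MZ (SE 0.09, adjusted p = 0.00313). Both passed under all alternatives. MZ exceeded FO by 0.35 (adjusted p = 0.00987), which passed under 27 of 28 alternatives, not without the KO replicate 1 libraries. FO and T2 differed by 0.07 (95% interval -0.13 to 0.27).

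Slc2a1 (ENSMUSG00000028645, chromosome 4 from 119108711 to 119137983, plus strand) had the highest RPKM of the 3 transporters in every library. This order rests on the lengths used, 2853 bp for Slc2a1 and 7245 bp for Slc2a3. By reads it varied, with 676 for Slc2a1 and 486 for Slc2a3 in WT T1 replicate 1, and 1266 and 1990 in WT MZ replicate 2. Slc2a1 did not pass in any comparison of subsets averaged over the genotypes. Its mean was 14.6 ± 3.0 RPKM in T1, 19.0 ± 2.71 in T2, 23.8 ± 3.08 among MZ libraries and 22.2 ± 2.87 in FO (SD, n = 4), and in all 4 comparisons the libraries overlapped. The spread within a group was wide, with 26.1 and 19.5 RPKM in the 2 WT FO libraries. The log2 difference was 0.38 from T1 to T2 (95% interval 0.07 to 0.68, adjusted p = 0.0685 from limma) and 0.32 from T2 to MZ (0.01 to 0.63, adjusted p = 0.0867). With a replicate block within each genotype both passed (adjusted p = 0.0371 and 0.0498), as did the WT difference from T2 to MZ, 0.49 (adjusted p = 0.0480).

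The transporter mix shifted with the subset. Slc2a6 held 6.04% ± 3.67 of the summed RPKM of the 3 transporters in T1, 12.7% ± 1.51 in T2, 3.59% ± 0.534 among MZ libraries and 17.3% ± 1.07 in FO (SD, n = 4). Slc2a3 held its largest share in MZ, 33.9% ± 2.97, and Slc2a1 in T1, 71.9% ± 3.94. Shares of a family depend on each other, so a lower share of Slc2a6 raises the others, and shares were not tested. Their size also rests on the exon length used for each gene.

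**Figure D3:**
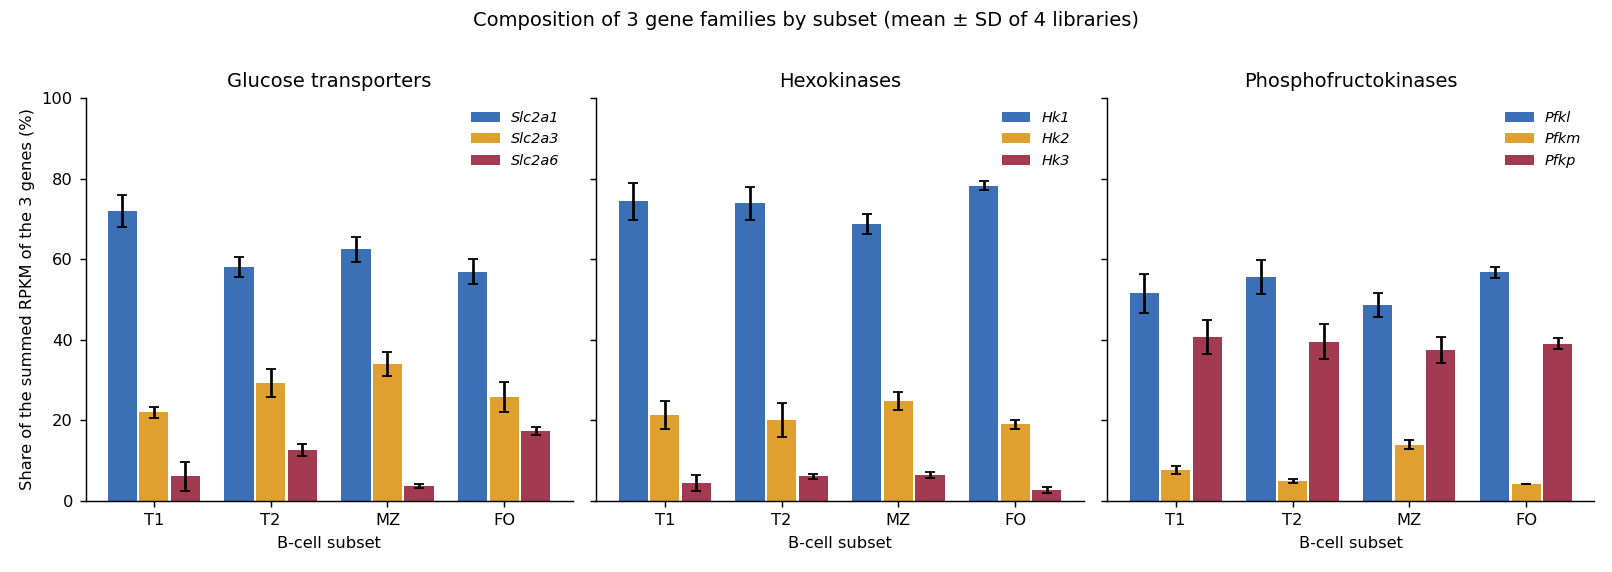
Share of the summed RPKM (y axis, percent, from 0) that each gene held within the glucose transporters, hexokinases and phosphofructokinases, by B-cell subset (x axis). Bars are means and whiskers SDs of 4 libraries; Slc2a6 falls to 3.59% in MZ and Pfkm rises to 14.0% there.

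Hk2, the inducible hexokinase that binds mitochondria, was highest in MZ. It (ENSMUSG00000000628) lies on chromosome 6 from 82725025 to 82774454, minus strand. It was at 3.36 and 3.04 RPKM in WT MZ and 2.49 and 3.13 in KO MZ. In T2 it was at 2.23 and 1.62 in WT and 1.74 and 1.61 in KO. In FO the values were 2.09 and 1.82 in WT and 2.25 and 1.85 in KO, and the T1 values were 1.31, 1.92, 1.38 and 2.17. All 4 MZ libraries exceeded the other 12. Hk2 rose from T2 to MZ by 0.61 (SE 0.15, adjusted p = 0.00863 from limma), which did not pass after quantile normalization. MZ exceeded FO by 0.48 (adjusted p = 0.0296 from limma). The excess passed under 19 of 28 alternatives, and not after quantile normalization or without the filter on low values. This last difference did not pass without WT MZ replicate 1, WT MZ replicate 2, WT FO replicate 1, WT FO replicate 2, KO MZ replicate 2 or KO FO replicate 2 (adjusted p 0.0550 to 0.0998).

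Hk1 (ENSMUSG00000037012, chromosome 10 from 62268855 to 62379908, minus strand), the constitutive hexokinase, exceeded Hk2 in every library. Its mean was 5.86 ± 0.278 RPKM in T1, 6.71 ± 0.678 in T2, 8.30 ± 0.235 among MZ libraries and 8.22 ± 0.529 in FO (SD, n = 4). It rose from T2 to MZ by 0.29 (SE 0.08, adjusted p = 0.0152 from limma), and FO exceeded T2 by 0.28, which did not pass (adjusted p = 0.0576). MZ and FO differed by 0.02 (95% interval -0.17 to 0.20). The rise to MZ passed under 24 of 28 alternatives. It ended after quantile normalization, with only the libraries compared, without WT MZ replicate 1 and without the KO replicate 1 libraries. Hk1 made up 68.7% ± 2.43 of the hexokinase RPKM in MZ and 78.3% ± 1.04 in FO, and Hk2 24.8% ± 2.22 and 19.0% ± 1.11 (SD, n = 4). Hk3, expressed mainly in myeloid cells, held 2.66% to 6.50% on average and was below 1 RPKM in every group, so it was not tested.

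Hk2 was also the only one of the 10 genes whose annotated 3′ UTR holds a match to the seed of miR-146a. The mature miRNA is shown with its seed, bases 2 to 8, in capitals, and the Hk2 window with the 8 matching bases in capitals. The miRNA lies at chr11:43374435-43374456 and the window at chr6:82726202-82726229, both on the minus strand (GRCm38; miRNA from RefSeq, window from the GENCODE transcripts).
mmu-miR-146a-5p: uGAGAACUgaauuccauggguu
Hk2 3′ UTR window: atttgtttcaAGTTCTCActgcatagaa
Of 10311 tested genes with a 3′ UTR, 598 (5.80%) hold this 8-base match and 2542 (24.7%) any match of the seed searched. KO minus WT for Hk2 was 0.10 (T1), -0.15 (T2), -0.17 (MZ) and 0.05 (FO), and over the 4 subsets it was -0.04 (95% interval -0.28 to 0.20). A match is a description of the letters and no evidence of binding.

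Pfkl, the liver-type phosphofructokinase subunit and the commitment step, followed another order. It (ENSMUSG00000020277) lies on chromosome 10 from 77986947 to 78010083, minus strand. It was at 16.9 and 14.4 RPKM in WT FO and 16.9 and 15.4 in KO FO, against 11.4 and 11.5 in WT MZ and 9.66 and 11.7 in KO MZ. In T2 it was at 10.7 and 12 in WT and 12.2 and 14.7 in KO, and in T1 at 11.0, 9.31, 8.29 and 9.61. The 4 FO libraries lay above the MZ and T1 libraries, and overlapped with T2 at KO T2 replicate 2. MZ was below FO by a difference of -0.51 (SE 0.10, adjusted p = 0.00244 from limma), which passed under all alternatives. From T2 to MZ the difference was -0.15 (95% interval -0.37 to 0.07). The rise from T1 to T2 was 0.36 (adjusted p = 0.0241 from limma). It passed under 18 of 27 alternatives, and not after median-ratio scaling, after quantile normalization or with only the libraries compared. It did not pass without WT T1 replicate 2, WT T2 replicate 2, KO T1 replicate 1 or KO T2 replicate 2 (adjusted p 0.0750 to 0.0881). The T2 to FO difference of 0.35 (adjusted p = 0.0497) passed under only 10 of 28 alternatives. It did not pass when any library was left out other than KO T1 replicate 1, KO T1 replicate 2, WT T2 replicate 2 or KO T2 replicate 2 (adjusted p 0.0505 to 0.190).

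Aldoa (ENSMUSG00000030695, chromosome 7 from 126795234 to 126800751, minus strand), the muscle-type aldolase that splits fructose 1,6-bisphosphate, was the most abundant of the 10 genes. It averaged 69.2 ± 4.35 RPKM in T1, 79.2 ± 10.2 in T2, 95.8 ± 9.42 among MZ libraries and 106 ± 6.70 in FO (SD, n = 4). The T2 libraries spread from 67.9 to 91.3 and those of FO from 96.8 to 112. FO exceeded T2 by 0.43 (SE 0.10, adjusted p = 0.0278 from limma) and MZ exceeded T2 by 0.28 (SE 0.10, adjusted p = 0.0388). The MZ difference did not pass without any of 7 libraries (WT T2 replicate 1, WT MZ replicates 1 and 2, WT FO replicates 1 and 2, KO T2 replicate 1 and KO MZ replicate 2; adjusted p 0.0535 to 0.139). The FO difference did not pass without WT T2 replicate 1, WT FO replicate 1, WT FO replicate 2, KO T2 replicate 1 or KO FO replicate 1 (adjusted p 0.0691 to 0.136).

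Pgk1 is phosphoglycerate kinase, the first step that yields ATP. On the log2(RPKM + 0.5) scale it had the largest MZ rise from T2 among the 7 enzymes of the 10 genes. Hk2 came close (0.61, SE 0.15), and this scale understates the change of low genes. Pgk1 (ENSMUSG00000062070) lies on chromosome X from 106187100 to 106203699, plus strand. In MZ it was at 24.9 and 25.8 RPKM in WT and 24.3 and 26.6 in KO. In FO it was at 17.5 and 18.0 in WT and 20.3 and 18.2 in KO, and in T2 at 17.1 and 12.9 in WT and 17.2 and 17.7 in KO. The T1 libraries held 14.8 and 15.8 in WT and 16.6 and 16.2 in KO. All 4 MZ libraries lay above the other 12, and these 12 ranged from 12.9 to 20.3. The T2 to MZ rise was 0.64 (SE 0.08, adjusted p = 0.00012 from limma) and the MZ excess over FO 0.45 (SE 0.08, adjusted p = 0.00151), and both passed under all 28 alternatives. The rise was 0.75 in WT (adjusted p = 0.000844) and 0.53 in KO (adjusted p = 0.00723), and the KO value did not pass without KO MZ replicate 2 (adjusted p = 0.0508). From T1 to T2 the difference was 0.02 (95% interval -0.16 to 0.20).

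Eno1 (ENSMUSG00000063524, chromosome 4 from 150236721 to 150248879, plus strand), the enolase that makes phosphoenolpyruvate, rose early and was high in both mature subsets. It was at 14.3 and 16 RPKM in WT T1 and 13.8 and 16.9 in KO T1, and at 19.7 and 22.5 in WT T2 and 20.4 and 27.5 in KO T2. In MZ it was at 29.6 and 30.7 in WT and 25.6 and 33.3 in KO, and in FO at 32.6 and 32.1 in WT and 33.8 and 31.4 in KO. T1 lay below every other library, and FO above every T2 library. Eno1 rose from T1 to T2 by 0.54 (SE 0.11, adjusted p = 0.00593 from limma), under all alternatives. From T2 it was higher by 0.40 in MZ (adjusted p = 0.0150) and by 0.53 in FO (adjusted p = 0.0240), and MZ and FO differed by -0.13 (95% interval -0.38 to 0.12). The MZ difference did not pass without WT T2 replicate 1, KO T2 replicate 1 or KO MZ replicate 2 (adjusted p 0.0551 to 0.0589). The FO difference did not pass without WT T2 replicate 1, WT FO replicate 1, WT FO replicate 2, KO T2 replicate 1 or KO FO replicate 1 (adjusted p 0.0654 to 0.118).

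Ldha (ENSMUSG00000063229, chromosome 7 from 46841475 to 46855627, plus strand) makes the main lactate dehydrogenase subunit of lymphocytes, and Ldhb, its partner, was at most 0.140 RPKM in any library. Ldha was at 36.8 and 43.1 RPKM in WT T1 and 36.8 and 46.4 in KO T1, and at 48.9 and 56.1 in WT T2 and 52.5 and 59.7 in KO T2. In MZ it was at 63.9 and 65.1 in WT and 60.0 and 71.8 in KO, and in FO at 56.9 and 54.4 in WT and 65.3 and 60.4 in KO. T1 was the lowest and MZ the highest on average, and the MZ and FO ranges overlapped. Ldha rose from T1 to T2 by 0.41 (SE 0.10, adjusted p = 0.00998 from limma), which passed under 26 of 27 alternatives. The T2 to MZ rise of 0.26 (adjusted p = 0.0470) passed under 15 of 28. It did not pass without any of 9 libraries (WT T2 replicate 1, WT MZ replicates 1 and 2, WT FO replicates 1 and 2, KO T2 replicate 1, KO MZ replicate 2 and KO FO replicates 1 and 2; adjusted p 0.0611 to 0.156).

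Several of these genes are textbook targets of HIF-1, which binds ACGTG or GCGTG, and of Myc, which binds CACGTG, so the 250 bases before their starts were searched on both strands for these letters (RefSeq, GRCm38.p6). The windows of Pgk1 and Hk2, which rose to MZ, and of Slc2a6, which fell, are shown with each ACGTG or GCGTG in capitals. On the other strand these read CACGT or CACGC, and CACGTG contains ACGTG on both strands. They lie at chrX:106186850-106187099 (plus), chr6:82774455-82774704 (minus) and chr2:27027999-27028248 (minus).
Pgk1: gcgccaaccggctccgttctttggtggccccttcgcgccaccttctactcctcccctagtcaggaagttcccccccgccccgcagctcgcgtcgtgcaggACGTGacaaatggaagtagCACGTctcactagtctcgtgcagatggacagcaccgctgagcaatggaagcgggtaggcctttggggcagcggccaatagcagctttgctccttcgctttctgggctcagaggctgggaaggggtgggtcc
Hk2: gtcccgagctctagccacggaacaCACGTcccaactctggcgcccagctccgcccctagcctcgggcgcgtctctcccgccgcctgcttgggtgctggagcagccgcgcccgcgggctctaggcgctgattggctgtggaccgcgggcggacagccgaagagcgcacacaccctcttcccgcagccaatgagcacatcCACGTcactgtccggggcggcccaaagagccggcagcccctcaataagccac
Slc2a6: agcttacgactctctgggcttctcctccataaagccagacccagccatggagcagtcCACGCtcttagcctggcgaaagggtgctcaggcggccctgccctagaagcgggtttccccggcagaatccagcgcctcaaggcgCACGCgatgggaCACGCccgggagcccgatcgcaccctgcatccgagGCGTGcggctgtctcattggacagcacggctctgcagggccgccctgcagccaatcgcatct
Pgk1 holds 2 matches, Hk2 holds 2 and Slc2a6 holds 4. Windows were listed for 9 of the 10 genes, all but Slc2a3. ACGTG or GCGTG stood in 13 of their 15 windows, some of which overlap, and in 12679 of all 32851 windows of this length (38.6%). CACGTG stood in 1 of 15 and in 6.02% of all. The windows behind these shares were not limited to tested genes or matched for base composition, so no enrichment is read from them. Genes that rose and the gene that fell both hold these letters, and what binds there was not measured.

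The rest of the route was described by 77 further genes in 6 lists, of which 50 were expressed highly enough to be tested. Of 12 other glycolytic enzymes, 6 rose and 1 fell from T2 to MZ (all tested genes 22.8% and 19.6%). Pfkm, the muscle-type phosphofructokinase, was called. It was at 1.12 ± 0.176 RPKM in T2, 3.18 ± 0.363 in MZ and 1.17 ± 0.0601 in FO (SD, n = 4), a rise of 1.19 from T2 (SE 0.11, adjusted p = 1.21e-05 from limma), and MZ exceeded FO by 1.13 (adjusted p = 1.82e-05). Pfkm held 14.0% ± 1.19 of the phosphofructokinase RPKM in MZ and 4.20% ± 0.0912 in FO, next to Pfkl at 48.6% ± 2.93 and 56.8% ± 1.42. Pkm, pyruvate kinase and the most abundant enzyme of the list, rose from 89.9 ± 8.35 to 122 ± 8.31 RPKM (0.44, adjusted p = 0.00314). Gpi1 (0.70), Tpi1 (0.56), Gapdh (0.44) and Eno3 (0.28) also rose, and Pgam2 fell by 0.50. The Pgam2 fall did not pass without WT T2 replicates 1 or 2, WT MZ replicate 2, KO T2 replicate 1 or KO MZ replicate 1 (adjusted p 0.0538 to 0.0930). The Gapdh rise did not pass without WT T2 replicate 1, WT MZ replicates 1 or 2, KO T2 replicate 1 or KO MZ replicate 2 (adjusted p 0.0721 to 0.122). From T1 to T2 2 of the 12 rose (16% of all), with Aldoc, the brain-type aldolase, called (1.58, SE 0.18, adjusted p = 0.000198), and 1 fell (9.94%). From T2 to FO 2 rose (4.77%) and 1 fell (5.04%), and 4 were higher (19.9%) and 1 lower (17.4%) in MZ than in FO.

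**Figure D4:**
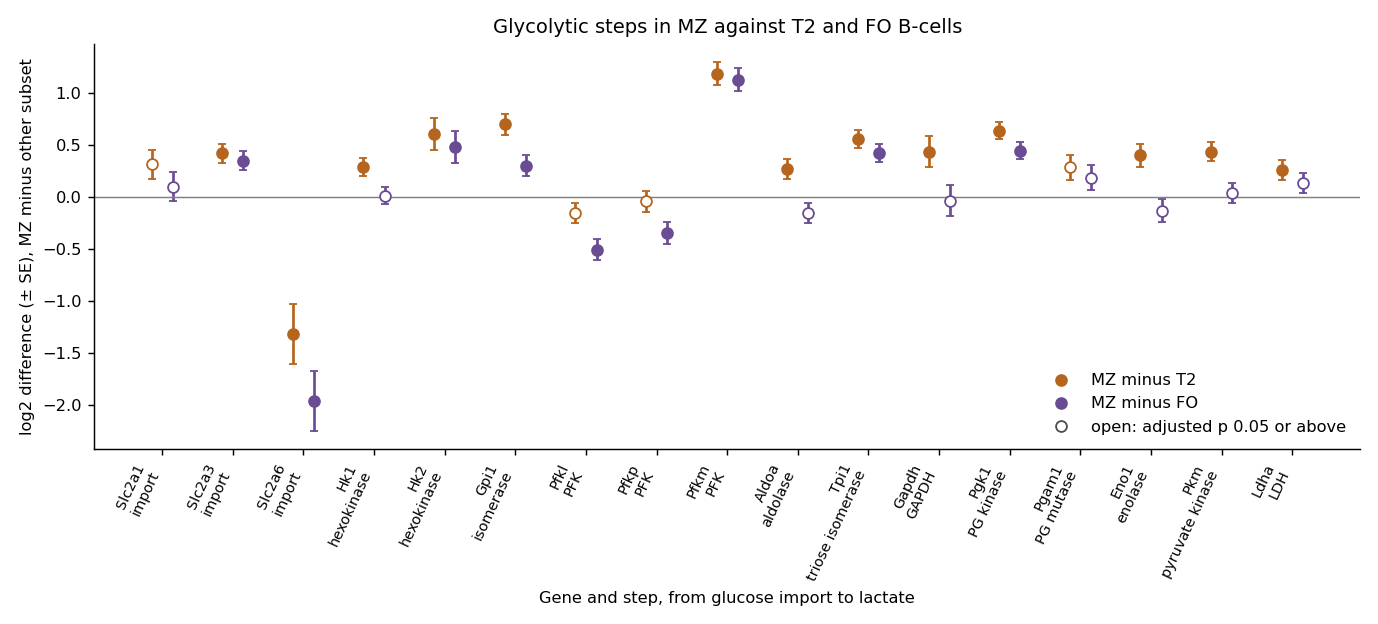
Log2 difference (y axis, ± SE, mean of WT and KO) of MZ minus T2 (orange) and MZ minus FO (purple) for 3 transporters and 14 enzyme genes in the order of the route from import to lactate (x axis). Filled points passed at an adjusted p under 0.05; Slc2a6 is at -1.32 and -1.96 and Pfkm at 1.19 and 1.13.

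Among other transporters only Slc2a8 and Slc2a9 were tested. Slc2a8 (GLUT8), which is found on internal membranes, was called from T2 to MZ, where Slc2a6 fell, and rose from 1.96 ± 0.568 to 4.91 ± 0.319 RPKM (SD, n = 4; 1.16, SE 0.19, adjusted p = 0.000599 from limma). From T2 to FO Slc2a8 also rose, by 0.75 (adjusted p = 0.0385 from limma), and the Slc2a6 difference was 0.64. This Slc2a8 rise passed under 14 of 28 alternatives and ended without any of 11 libraries (adjusted p 0.0503 to 0.158). Its T1 to T2 difference was -0.60 (adjusted p = 0.0387), which passed under 9 of 27. Slc2a9, a urate transporter, rose by 0.51 (adjusted p = 0.0109). Of 10 regulators of the flux, 2 rose and 2 fell from T2 to MZ, close to the shares of all genes (22.8% and 19.6%). Txnip, which holds back glucose uptake, was the most abundant and fell from 193 ± 4.12 to 105 ± 5.05 RPKM (-0.88, SE 0.07, adjusted p = 4.67e-06), and MZ was below FO by -0.67 (adjusted p = 3.49e-05). Pfkfb4, which sets the phosphofructokinase activator fructose 2,6-bisphosphate, was called from T1 to T2 (1.14, SE 0.10, adjusted p = 4.73e-05). Myc spread widely, from 58.0 to 221 RPKM within MZ. It was called from T1 to T2 (1.55, SE 0.51, adjusted p = 0.0477) and higher in MZ than in FO (1.73, SE 0.51, adjusted p = 0.0218). The T1 to T2 call of Myc passed under 12 of 27 alternatives and ended without any of 10 libraries (all T1 and T2 libraries other than KO T1 replicate 2 and KO T2 replicate 1, WT MZ replicates 1 and 2 and KO FO replicates 1 and 2; adjusted p 0.0556 to 0.150). Its MZ against FO call ended without WT MZ replicate 1, WT FO replicate 2, KO MZ replicate 2 or KO FO replicate 1 (adjusted p 0.0621 to 0.0818).

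Beyond glycolysis the counts from T2 to MZ were near those of all tested genes (22.8% higher, 19.6% lower). Of 15 genes of lactate and pyruvate transport and entry, 4 rose and 4 fell. Pdp1, the phosphatase that switches on pyruvate dehydrogenase, was called lower (-1.08, SE 0.09, adjusted p = 4.58e-06 from limma), and Pdhb, a subunit of pyruvate dehydrogenase itself and the most abundant of the list, fell by 0.27 (adjusted p = 0.00649). From T1 to T2 4 of the 15 rose (16% of all genes), among them Pdk1, which switches pyruvate dehydrogenase off (0.79, adjusted p = 0.000119). Of 8 pentose phosphate genes, 2 rose and 2 fell from T2 to MZ, with Rpia, which makes ribose 5-phosphate, called lower (-1.09, SE 0.08, adjusted p = 1.73e-06). Of 3 tested genes of glucose production, Pcx was tested only because its mean exceeded 1 RPKM in MZ (1.29 ± 0.114, SD, n = 4), so it is left out of the counts. The other 2, Pck2 and G6pc3, the last step of glucose release, rose from T1 to T2, and G6pc3 rose again from T2 to MZ (0.30, adjusted p = 0.00314). Pck2, a mitochondrial enzyme and the more abundant on average, rose from T1 to T2 (0.61, adjusted p = 0.0119) and was lower in MZ than in FO (-0.60, adjusted p = 0.00864).

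Loss of miR-146a gave no difference that passed in any of the 10 genes. In KO against WT 0 of the 10 passed in any subset, where the share of all tested genes that did was 0.0400% for T1, 0.0480% for T2, 0.0640% for MZ and 0.0400% for FO, and 0 passed over the mean of the 4 subsets (0.232%), by limma and by limma-voom on recovered reads alike. Slc2a3 alone had an unadjusted p under 0.05, in T1, in FO and over the 4 subsets. It was lower in KO by -0.36 (T1), -0.19 (T2), -0.16 (MZ) and -0.29 (FO), and by -0.25 over the 4 subsets (SE 0.06, 95% interval -0.39 to -0.11, adjusted p = 0.304 from limma). In each subset both KO libraries were below both WT libraries, as they were for 0.304% of all tested genes. Without the KO replicate 1 libraries, in which immediate early genes were low, this value was -0.16. The other 9 genes lay between -0.12 and 0.11 over the 4 subsets. Their intervals were narrowest for Hk1 (-0.14 to 0.12) and Pgk1 (-0.02 to 0.24) and widest for Slc2a6 (-0.48 to 0.43). A change of Slc2a6 within these bounds is not excluded. The intervals cover the mean of the 4 subsets and are not adjusted for the number of genes tested. Of the other 50 tested genes of the route, 0 passed in any subset by limma or limma-voom, and those with an unadjusted p under 0.05 numbered 0 in T1 and T2, 1 each in MZ and FO and 4 over the mean of the 4 subsets, where 7.98% of all tested genes had one.

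**Figure D5:**
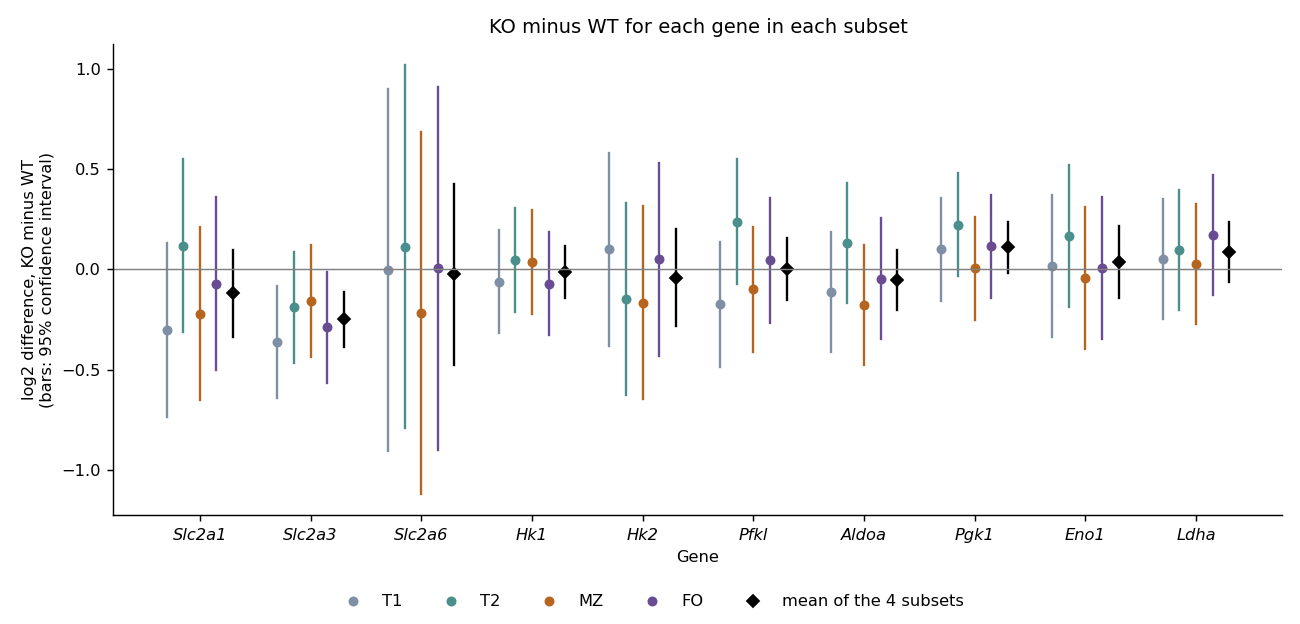
Log2 difference of KO minus WT (y axis, on the log2(RPKM + 0.5) scale) of the 10 genes (x axis) in T1, T2, MZ and FO (coloured circles) and over the mean of the 4 subsets (black diamonds). Bars are 95% confidence intervals from limma; all intervals reach 0 except those of Slc2a3 in T1, in FO and over the mean.

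The T2 to MZ step was also compared within each genotype. In WT 4 genes rose (Slc2a3, Aldoa, Pgk1 and Eno1; 16% of all genes) and in KO 2 rose (Slc2a3 and Pgk1; 14.2%) and 1 fell (Slc2a6; 11.1%). The difference between the genotypes was tested as an interaction, and 0 of the 10 passed (0.00800% of all genes), none of them with an unadjusted p under 0.05, and 0 by limma-voom. The interaction estimates (KO minus WT) ran from -0.34 to 0.03. The 95% interval was -0.36 to 0.43 for Slc2a3, -0.58 to 0.15 for Pgk1 and -1.61 to 0.95 for Slc2a6. With 1 library left out, 1 to 5 genes rose and 0 or 1 fell in WT, and 0 to 3 rose and 0 or 1 fell in KO. No gene passed in KO without KO MZ replicate 2.

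The pattern of a gene over the 8 groups can be set beside that of other genes. Prkd2 (Pearson's r 0.997) and Rasa4 (0.996) were most like Slc2a6, and Rasgef1b (0.998) and Tmem5 (0.992) most like Slc2a3, over 8 group means of log2(RPKM + 0.5). The points share libraries and depth, and the genes were picked as the highest among all tested genes, so these values only describe the pattern.

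Reads of some of these genes can be shared with others. Transcripts with at least 95% identity over at least 200 bases exist for Pgk1 (4 genes), Eno1 (3) and Ldha (4), and those among the deposited values summed to 0.0104, 0.346 and 0.0112 RPKM on average. The authors kept uniquely aligned reads, so reads that fit these copies equally well were dropped, and levels of these 3 genes may be too low. Slc2a1 and Hk1 share 105 and 157 exon bases with the antisense genes Gm12868 (0.511 RPKM) and Hk1os (0.425 RPKM). Whether counts were made by strand is not given, so reads of such pairs cannot be told apart.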

How the data were processed

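Sorted B-cells gave TruSeq libraries that were read as single ends of 100 bp. The authors discarded poor reads and any holding adapter sequence, ran TopHat against mm10 (up to 2 mismatches), kept unique alignments and computed the deposited RPKM per gene with Perl scripts. The submitters' processing notes also name DESeq and edgeR, and no versions are given in the sources used here. Within a gene the RPKM values are whole multiples of 1 read, so reads were recovered for 23194 of 23194 genes above 0 (tolerance 0.01 reads), 13395 of them at the GENCODE M21 exon length. The totals behind the RPKM, 9003343 to 26386684 per library, match the recovered reads summed over genes. Every value column matched a sample.

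The 12507 genes whose mean RPKM exceeded 1 in any group entered a limma (3.58.1, R 4.3.3) fit of log2(RPKM + 0.5) (1 model of 8 groups, trended variance, two-sided, Benjamini-Hochberg within each of 12 comparisons), after a check on simulated data. Python 3.11.15 and blastn 2.17.0 were used for the rest. The fit was repeated in 24 other ways: pseudocounts of 0.1 and 1, no filter, quantile normalization, median-ratio scaling, limma-voom on recovered reads, a block for the replicate number, the compared libraries alone, and each library left out. 5 more were added after seeing the data: leaving out the T1, the T1 replicate 2 or the KO replicate 1 libraries, a crossed block, and a replicate block within each genotype.

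The 10 genes and all lists were chosen with earlier results of these data known, so no list is tested as such. Every called gene of a list is named, otherwise its most abundant tested gene, and other genes of the route were named after their values were seen. The 2 most similar patterns were sought for each gene and are given for Slc2a3 and Slc2a6, which were called. Seeds of miR-146a were sought in GENCODE 3′ UTRs as AGTTCTCA, AGTTCTC and GTTCTCA.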

Additional observations from a re-analysis of the deposited data

How the results depend on the processing

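No result for the 10 genes or the other named genes of the route reversed past the threshold under any alternative. Of 5346 values recomputed for them, 4845 kept their side of the threshold, 459 lost it and 42 gained it. Values that had not passed, such as all of KO against WT, are in this total. Only values that had passed could lose it, so the total does not give the stability of those. The replicate numbers did not pair KO and WT libraries in the same way in every subset. Deviations of the same number correlated at 0.30 (T1), 0.16 (T2), -0.23 (MZ) and -0.16 (FO). With the replicate number as a block, the counts of called genes were 709 from T1 to T2 (679 without it), 1387 from T2 to MZ (1354), 178 from T2 to FO (143) and 1171 from FO to MZ (1151), and Slc2a6 passed from T2 to MZ in WT (adjusted p = 0.0238). Within a genotype, libraries of the same number had correlated deviations (r 0.19 to 0.44 over the 6 pairs of subsets in KO, 0.076 to 0.45 in WT). A replicate block within each genotype was added after seeing the data. It gave 739, 1421, 211 and 1204 called genes in the same order, and 0 genes passed for the interaction. For the 10 genes it added Slc2a1 from T1 to T2 and from T2 to MZ, and Slc2a1 and Slc2a6 from T2 to MZ in WT. Crossing the numbers gave 8 called genes in KO against WT in MZ and 4 in FO, the counts without a block.

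The smaller counts of called genes moved with the fit. From T2 to FO there were 83 without the filter on low values, 80 with only the libraries compared, 0 without the KO replicate 1 libraries and 15 to 188 with 1 library left out (15 without KO FO replicate 1, 21 without WT FO replicate 1, 25 without KO T2 replicate 1, 78 without WT FO replicate 2 and 57 without WT T2 replicate 1). From T2 to MZ in KO there were 593 without the KO replicate 1 libraries (1181 with all). In KO against WT, T1 had 5 called genes with all libraries, 0 with only the libraries compared, 16 without the T1 replicate 2 libraries and 3 to 13 with 1 library left out. T2 had 6, against 1 with only the libraries compared, 3 with the KO replicate 1 libraries left out, 2 by limma-voom and 5 to 25 with 1 library left out. MZ had 8, against 0, 4, 5 and 5 to 8 in the same order, and FO had 4, against 0 with only the libraries compared, 2 without the KO replicate 1 libraries and 1 to 3 with 1 library left out. For the interaction, genes were counted at an adjusted p under 0.05 with no limit on the size of the difference, and 1 passed. The count was 0 at a pseudocount of 0.1, 3 at 1 and 18 without the filter. It was 0 with only the libraries compared, 0 by limma-voom and 0 without the T1 libraries. It also changed with some single libraries left out. The cause was not tested.

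With 2 pooled libraries per group the standard error of a log2 difference between subsets was 0.12 for the median gene, and Slc2a6 (19 to 612 reads) was measured least precisely. Intervals rest on a shared estimate of the spread. RPKM does not correct for the few very abundant genes of the T1 replicate 2 libraries, whose 10 highest genes held 22.9% and 25.7% of the RPKM against 9.49% to 15.5% elsewhere.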
